A study of Mus musculus with 84 samples.

Results

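The immediate early genes were followed mouse by mouse in liver RNA from a feeding study of organophosphate pesticides (OPPs). The set was given by name and held 10 genes: Fos, Jun, Junb, Egr1, Ier2, Ier3, Klf6, Dusp1, Myc and Zfp36. All 10 had a row of their own among the 17695 genes of the deposited count table. The rule names the genes and uses no expression value. Of the 10 genes 8 passed a filter on low counts that 10415 genes passed.

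Male B6C3F1 mice, aged 8 weeks when the diets began, ate OPP in the feed for 7 days. The diets held fenthion (FT) at 2.5, 5, 10 or 20 ppm, methidathion (MT) at 10, 25, 50 or 100 ppm, or parathion (PT) at 20, 40 or 80 ppm, and the control group (Con0ppm) ate feed without OPP. The mice were run in blocks numbered 1, 3 and 4, which gave 2, 3 and 2 mice to each of the 12 groups of 7, and RNA was isolated at EA for 77 mice and at EPA for the other 7. The mice shared cages and the cage of each mouse was not used here, so the p-values measure the spread between mice that may have shared one. Expression was measured with TempO-Seq, in which pairs of probes are ligated on a transcript and counted by sequencing. A level is given as CPM, the counts of a gene divided by the mouse's total count and scaled to a common sum, and because probe pairs differ in efficiency, levels are compared between mice and not between genes.

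Mice are named by group and by a number in accession order, which ties no mouse to one of another group. Total counts per mouse ranged from 6950381 to 15300589 with a median of 11581335, so that 3 counts, the floor taken as measurable, corresponded to 0.196 to 0.432 CPM. This floor covers counting error only. Of 7 hepatocyte markers fixed for the check, 6 were used here and all 6 were detected. Their summed level ran from 18113 to 42919 CPM over the mice, and that of 6 lymphocyte markers from 1.10 to 6.90 CPM. RNA came from pieces of frozen liver and not from separated cells, so fewer cells of a type and less RNA per cell cannot be told apart. One library stood apart in marker levels and in the summed level of the members themselves. PT80ppm replicate 1 had the lowest summed level of all 84 mice for Kupffer cell (14.2 CPM, against at least 61.9 in each other mouse), cholangiocyte, erythroid and lymphocyte markers, and the highest for the 10 immediate early genes together (382 CPM), although its total count of 10877259 was ordinary. For erythroid and platelet markers its 15.9 CPM was close to the 16.2 CPM of the lowest FT10ppm mouse. Among cholangiocyte markers Spp1 alone passed the filter on low counts. Other marker lists of this mouse were not at the low end. Its rank from the highest of 84 was 65 for sinusoidal endothelial, 27 for stellate cell and fibroblast, 55 for neutrophil and 3 for hepatocyte markers. The results that rest on PT80ppm replicate 1 are therefore given with and without it.

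Immediate early genes are transcribed within minutes of a signal such as a growth factor, a stress or a hormone, from promoters whose activating factors are already present in the cell, so no new protein is needed first. Their transcripts are short-lived. Many encode transcription factors that switch on later genes, and others encode brakes on the signal itself. In liver they are known for their rapid rise after partial hepatectomy, fasting and refeeding, acute injury and tissue handling.

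The members divide by role. Fos, Jun and Junb encode subunits of AP-1, a dimeric transcription factor. Egr1 and Klf6 encode zinc finger transcription factors, and Myc encodes the growth-promoting factor that binds DNA with Max. Dusp1 encodes a phosphatase that switches off MAP kinases, and Zfp36 encodes tristetraprolin, which marks AU-rich mRNAs for decay. Ier2 and Ier3 encode small proteins of the early response. On GRCm39, Dusp1 lies on the minus strand at chr17:26724564-26781102, Zfp36 on the minus strand at chr7:28076209-28079710, Ier2 on the minus strand at chr8:85387960-85389483, Myc on the plus strand at chr15:61857227-61862223 and Jun on the minus strand at chr4:94937271-94940459. Junb lies on the same strand of the same chromosome as Ier2, at chr8:85701113-85705359.

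The promoters of Dusp1 and Zfp36 are shown because both encode feedback inhibitors and hold, between them, elements that classically switch on early response genes. A further reason was that both were called higher at the highest PT dose than at the lower ones with all mice included. Neither call was kept without PT80ppm replicate 1, as given below. The RefSeq sequences of build GRCm38.p6 are the 250 bases before the transcription start on the minus strand, chr17:26508473-26508722 for Dusp1 and chr7:28379229-28379478 for Zfp36. Capitals mark motif matches. In Dusp1 these are the cyclic AMP response element TGACGTCA at 143 to 136 bases before the start and the E-box CACGTG at 126 to 121 bases before it. In Zfp36 they are the EGR site GCGNGGGCG at 105 to 97 bases before the start and the CArG box, to which serum response factor binds, at 58 to 49 bases before it.
Dusp1: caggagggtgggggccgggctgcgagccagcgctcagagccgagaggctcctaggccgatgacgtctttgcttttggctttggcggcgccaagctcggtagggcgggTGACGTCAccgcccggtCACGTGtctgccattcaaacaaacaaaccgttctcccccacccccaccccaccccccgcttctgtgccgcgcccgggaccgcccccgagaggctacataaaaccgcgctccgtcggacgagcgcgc
Zfp36: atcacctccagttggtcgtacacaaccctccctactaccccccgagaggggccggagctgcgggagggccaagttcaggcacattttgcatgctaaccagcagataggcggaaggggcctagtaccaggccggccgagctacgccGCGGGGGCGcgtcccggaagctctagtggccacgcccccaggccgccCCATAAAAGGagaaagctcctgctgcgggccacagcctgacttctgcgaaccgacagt

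RefSeq promoters of 7 of the 10 genes were searched, namely Fos, Jun, Junb, Ier3, Klf6, Dusp1 and Zfp36. Those of Egr1, Ier2 and Myc were not searched, so the counts below leave these genes out. Both strands were searched from 250 bases before to 50 bases after the start, and no matches overlapped. Among 32544 promoters of the same length, 1.80% held TGACGTCA, 5.60% GCGNGGGCG, 1.64% a CArG box and 7.17% CACGTG. Of the 7 promoters, 1 held each of the first 3 (Dusp1, Zfp36 and Zfp36) and 2 held CACGTG (Dusp1 and Klf6). An NF-kB site, found in 8.49% of promoters, was in Fos and Ier3, and TATAAA, found in 13.6%, was in Fos and Junb. The AP-1 site TGANTCA, found in 7.79%, was in 0 of the 7 windows. A match describes the letters of the window and is not a measured binding site.

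The AP-1 subunit Fos was barely detected. Its median was 3 counts, 15 of the 84 mice had none, 50 had 3 counts or fewer, and the highest mouse, PT20ppm replicate 3, had 14 counts (1.23 CPM). Ier3 was lower still, with 40 mice at 0 and 78 at 3 counts or fewer. Its highest value, 8 counts or 0.735 CPM, was in PT80ppm replicate 1. With no filter on low counts edgeR called neither gene in any comparison of diets. The comparisons nearest the threshold were Fos at PT80ppm against the control (log2 fold change 1.85, adjusted p = 0.106) and Ier3 at PT80ppm against the lower PT doses (1.99, adjusted p = 0.0510).

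The other 8 members were measured in every mouse and differed in how far they ranged. Egr1 had the widest span, from 0.786 to 49.6 CPM around a median of 4.55, a ratio of 63.1 between the highest mouse (FT2.5ppm replicate 7) and the lowest. Myc ran from 2.83 to 78.5 CPM with a median of 6.73, a ratio of 27.8. FT20ppm replicate 5, PT80ppm replicate 1 and PT20ppm replicate 7, held the highest Myc levels at 78.5, 65.5 and 65.03 CPM. Ier2 was the steadiest member, from 22.8 to 88.0 CPM around 42.8, and its 3 highest mice were all of the PT80ppm group. Jun ran from 3.24 to 28.6 CPM, Junb from 3.23 to 36.7, Klf6 from 0.349 to 3.13 and Zfp36 from 6.64 to 36.2. Dusp1 reached 145 CPM in PT80ppm replicate 1, then 57.4 in FT20ppm replicate 4 and 33.7 in FT5ppm replicate 7.

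This spread was largely between mice of the same diet. After group, block and isolator means were removed, the SD of log2(CPM + 1) was 1.15 for Egr1 and 1.05 for Myc, against a median of 0.25 over all genes tested. Among genes of like level, 6 members lay above the 94th percentile of this SD, Egr1 and Myc both at 99.8, whereas Ier2 was at 84.1 and Klf6 at 67.2. The diet group carried 36.7% of the sum of squares of Ier2 and 25.8% of that of Myc but 2.45% of that of Egr1. The block carried 23.03% of the sum of squares of Egr1 and 16.1% of that of Klf6. With PT80ppm replicate 1 left out, the SD was 1.16 for Egr1 and 1.03 for Myc, the group carried 31.004% of the sum of squares of Ier2, and the block carried 22.6% of that of Egr1.

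The first question was whether any diet changed the members against the control. At PT80ppm 2 of the 8 members rose, Dusp1 and Ier2, and the remaining 6 did not pass the test. Over all genes tested 18.6% were called in this comparison, 9.75% in the higher direction. The median log2 fold change of the members was 0.25 with 6 of 8 above 0, against a median of 0.01 and 50.9% above 0 over all genes. With PT80ppm replicate 1 left out the members had a median of 0.15 with 5 of 8 above 0.

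In the control mice Dusp1 lay between 9.34 and 27.04 CPM with a median of 14.8. In the PT80ppm mice it was 145, 31.98, 30.6, 15.9, 15.6, 10.8 and 8.20 CPM. Only 3 of the 7 PT80ppm mice exceeded the highest control, the groups overlapped, and their medians, 15.9 and 14.8, were close. The log2 fold change was 1.32 ± 0.38 (SE, n = 7 per group) with an adjusted p of 0.00825 by edgeR's quasi-likelihood test. With PT80ppm replicate 1 left out it was 0.33 with an adjusted p of 0.551, and the share of all genes called was then 12.3%. Within blocks the difference in mean log2(CPM + 1) was 2.71 in block 1, which holds that mouse, -0.07 in block 3 and -0.34 in block 4. Such within-block differences, here and below, have no isolator term.

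Ier2 moved less in size and in more of the mice. Control mice lay between 39.2 and 56.5 CPM with a median of 44.7, and the PT80ppm mice were at 88.0, 82.3, 76.2, 66.8, 58.7, 55.2 and 40.3 CPM. Thus 5 of the 7 PT80ppm mice were above every control mouse and the other two overlapped with the controls. The log2 fold change was 0.42 ± 0.16 (SE, n = 7 per group) with an edgeR adjusted p of 0.0459, and without PT80ppm replicate 1 it was 0.36 with an adjusted p of 0.139. The difference was above 0 in every block, at 0.57, 0.65 and 0.23 on the log2(CPM + 1) scale in blocks 1, 3 and 4. The call was near the threshold, and it was kept in 4 of the 14 fits that left out 1 control or PT80ppm mouse.

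For Zfp36 the PT80ppm mice split. Levels of 36.2, 35.5 and 27.7 CPM lay above all control mice, which ran from 9.15 to 23.2, and the remaining mice at 17.3, 12.5, 10.9 and 8.31 CPM did not. The log2 fold change of 0.47 ± 0.27 (SE, n = 7 per group) did not pass the test (edgeR adjusted p = 0.223), and it was 0.35 without PT80ppm replicate 1. The plot of Dusp1, Ier2 and Zfp36 by group shows these splits.

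**Figure D1:**
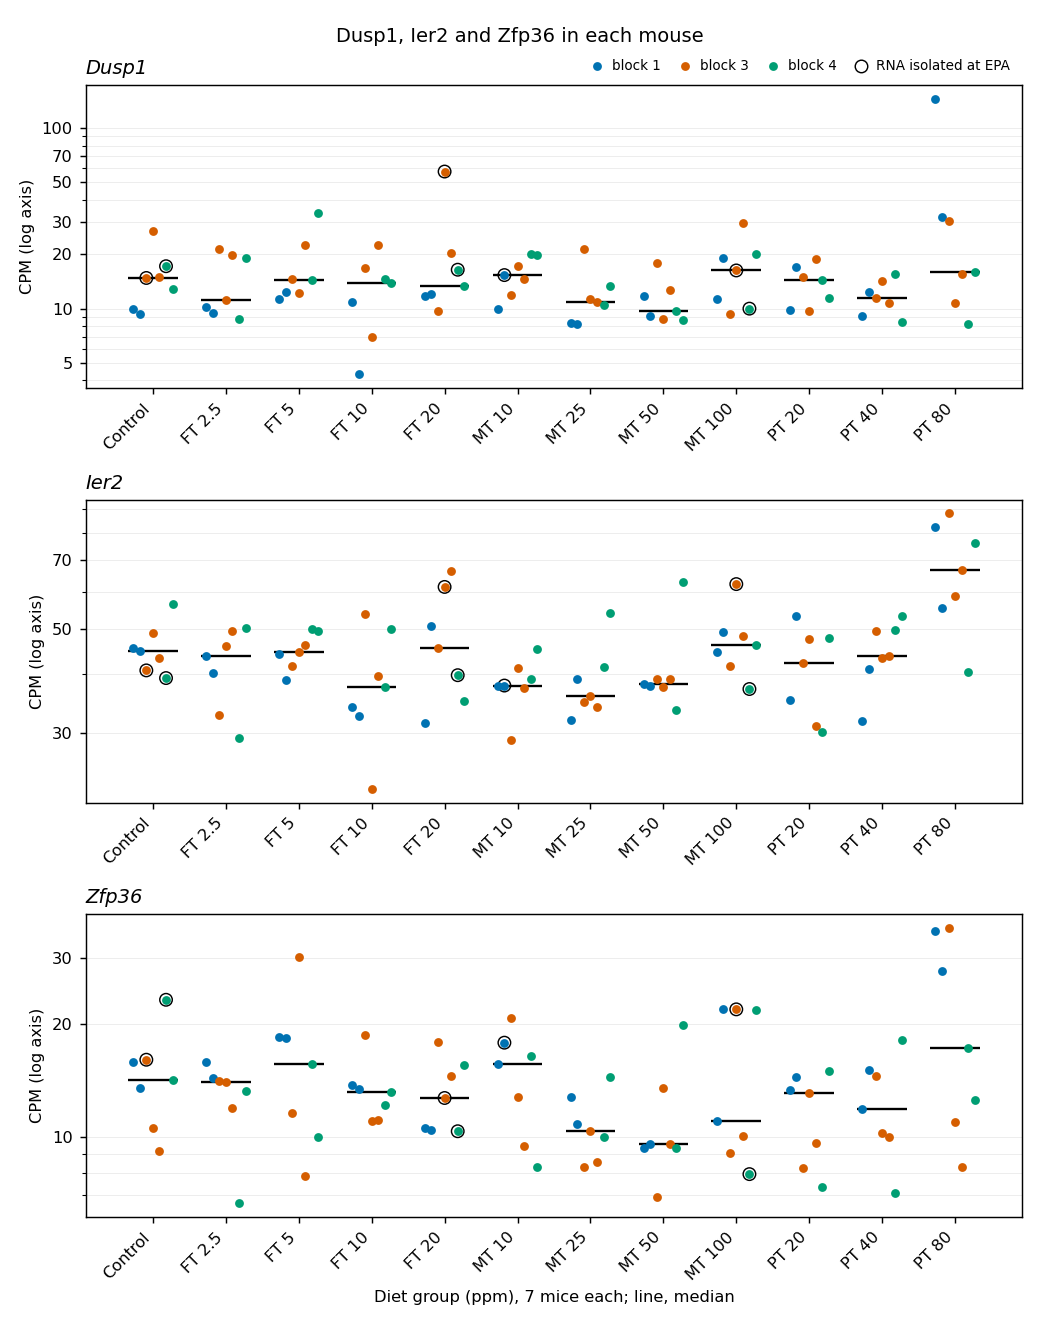
Level of Dusp1, Ier2 and Zfp36 in each mouse, in CPM on a log axis, by diet group. Points are mice coloured by block, ringed where RNA was isolated at EPA, and lines are group medians. The PT80ppm column holds the 3 highest Ier2 mice (88.0, 82.3 and 76.2 CPM) and the single Dusp1 value of 145 CPM.

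The PT groups were also compared with each other, which leaves the control mice out. PT80ppm was set against the mean of PT20ppm and PT40ppm, and 3 of the 8 members rose, Dusp1, Ier2 and Zfp36. Of all genes 25.7% were called, 13.4% in the higher direction, and 6 of the 8 members had a fold change above 0, against 49.7% of all genes. When PT80ppm replicate 1 was left out, 4 of 8 were above 0.

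At the lower PT doses Ier2 ran from 30.1 to 53.1 CPM (PT20ppm, median 42.3) and from 31.8 to 53.2 CPM (PT40ppm, median 43.7). Of the 7 PT80ppm mice 6 were above all of these mice. The log2 fold change was 0.54 ± 0.13 with an adjusted p of 0.00108 by edgeR, and 0.48 with an adjusted p of 0.00845 without PT80ppm replicate 1, in a setting that called 15.4% of all genes. The call was kept under every alternative listed for this comparison (0.50 to 0.61) and with any single PT80ppm mouse left out (0.48 to 0.63). Within blocks 1, 3 and 4 the difference was 0.75, 0.71 and 0.32.

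Zfp36 ran from 7.36 to 15.001 CPM at PT20ppm and from 7.08 to 18.2 CPM at PT40ppm, below the 3 highest PT80ppm mice and overlapping with the others. Its log2 fold change was 0.70 ± 0.22 with an edgeR adjusted p of 0.0118. It had the same sign in all blocks, at 1.15, 0.45 and 0.39 in blocks 1, 3 and 4, but the adjusted p was 0.0688 without PT80ppm replicate 1, and the call was also lost without PT80ppm replicate 3. Dusp1 ran from 9.70 to 18.8 CPM at PT20ppm and from 8.39 to 15.6 CPM at PT40ppm. Its log2 fold change of 1.48 ± 0.31 (edgeR adjusted p = 1.63e-04) became 0.49 with an adjusted p of 0.198 without PT80ppm replicate 1. With all PT doses and the control in 1 test, 2 of 8 members were called, Dusp1 (edgeR adjusted p = 9.69e-04) and Ier2 (0.00911), against 19.6% of all genes. When PT80ppm replicate 1 was left out those adjusted p-values were 0.473 and 0.0573.

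At PT20ppm and PT40ppm edgeR called 0 of the 8 members against the same control mice, where 0.0096% and 0% of all genes were called. At an unadjusted p under 0.05 there were 0 and 1 members, the latter Myc, and DESeq2 and limma called 0 in both. From PT20ppm to PT40ppm to PT80ppm the median Ier2 level was 42.3, 43.7 and 66.8 CPM. The plot of fold changes sets the comparisons of PT80ppm beside those of the other OPPs, blocks and isolators.

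**Figure D2:**
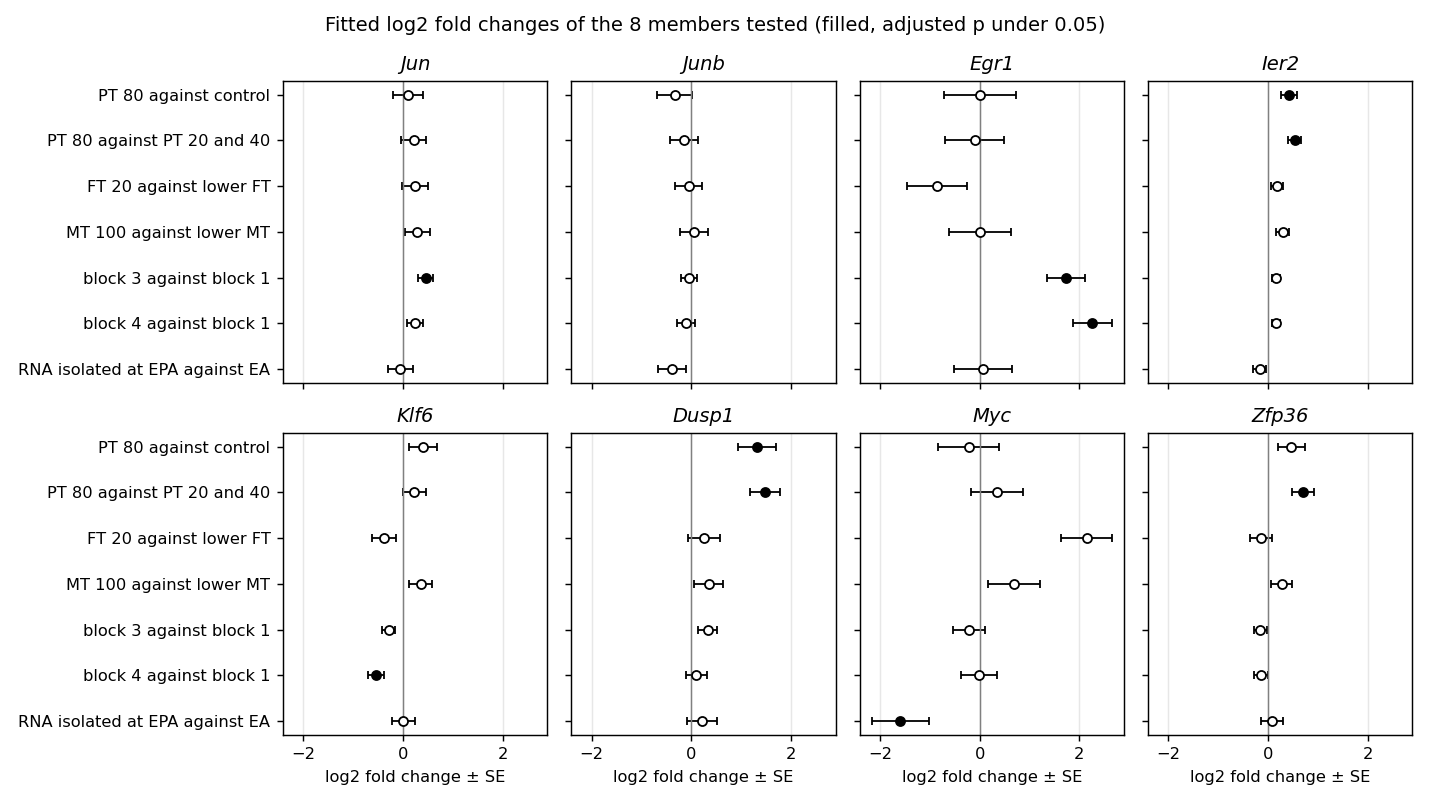
Log2 fold change of the 8 members tested in 7 comparisons, with bars of 1 SE from the edgeR fit over 84 mice. Filled points passed an adjusted p of 0.05. The filled points of the PT comparisons are Dusp1 at 1.32 and Ier2 at 0.42 against the control, and Dusp1, Ier2 and Zfp36 at 1.48, 0.54 and 0.70 against the lower PT doses.

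Other early response genes were followed from a list of 46, of which 26 were tested. At PT80ppm against the control 6 rose and 1 fell, or 7 of 26, where 18.6% of all genes were called. Ccn2, which encodes a matricellular protein and is a target of YAP, rose by 1.93, Bhlhe40, a circadian transcriptional repressor, by 1.02, Rhob, a small GTPase, by 0.69 and Dusp6, a phosphatase for ERK, by 0.79 on the log2 scale. Cebpd, a transcription factor of the acute phase, rose by 1.34, and the kinase gene Pim1 fell by 0.99. Without PT80ppm replicate 1 the list had 4 genes higher and 1 lower, where 12.3% of all genes were called, with Ccn2 at 1.38, Bhlhe40 at 1.06 and Cebpd at 0.67, the last no longer called. The median of the list was 0.22 with that mouse and 0.10 without it.

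Upstream of the members, the MAP kinase and serum response factor pathway had 27 genes tested. At PT80ppm 2 rose, the kinase gene Mapk14 by 0.25 and the transcription factor gene Atf1 by 0.15 on the log2 scale, 0 fell, and the median was 0.02. This share of 2 in 27 was below the 18.6% of all genes called, against which the other counts with all mice are also to be read. Counts without PT80ppm replicate 1 are to be read against the 1276 of 10415 genes called in that fit. Neither Mapk14 nor Atf1 was called without PT80ppm replicate 1. Of 9 tested genes of the response to glucocorticoids, the adrenal hormones of fasting and stress, 4 rose, with Fkbp5, a co-chaperone of the receptor, at 2.94, Tat at 1.57, Zbtb16 at 1.52 and Tsc22d3 at 0.96. Of these, 3 were called without PT80ppm replicate 1, Fkbp5 at 2.55, Zbtb16 at 1.25 and Tsc22d3 at 0.91. Of 10 tested inflammatory and acute phase genes 4 fell, among them the serum amyloid genes Saa1 and Saa2, which fell by 5.99 and 7.41. The control mice were uneven here, with a summed level of the 14 listed genes from 3243 to 86379 CPM (median 42591). At PT80ppm it ran from 2583 to 8244 CPM (median 4627). The other dosed groups had medians from 4262 CPM (FT2.5ppm) to 28360 CPM (MT50ppm). The same number of these genes was called without PT80ppm replicate 1. Kupffer cell markers had 3 of 5 lower (1 of 5 without that mouse) and erythroid and platelet markers 4 of 4 lower. The 1 cholangiocyte marker tested, Spp1, was lower, and circadian clock genes had 4 of 10 higher. The part of these genes in the result for the members was not tested.

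At the FT and MT doses edgeR called 0 of the 8 members against the control. Of all genes it called 0.0096% at FT2.5ppm, 0% at FT5ppm, 1.57% at FT10ppm, 0% at FT20ppm, 0% at MT10ppm, 0% at MT25ppm, 0.0096% at MT50ppm and 0.0768% at MT100ppm. At an unadjusted p under 0.05 there was 1 member, Myc, at each of FT2.5ppm, FT10ppm and MT10ppm, and 0 at the other FT and MT doses. DESeq2 called Myc at FT10ppm, where it called 239 of the 10415 genes, and limma called 0 members. With all doses of an OPP in 1 test, edgeR called 0 members for FT (0.0768% of all genes) and 0 for MT (0.0864% of all genes), with 1 and 0 members at an unadjusted p under 0.05. DESeq2 called 1 member for FT, again Myc, and 0 for MT, and limma called 0 for both.

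Myc in the control group ranged from 4.18 to 39.02 CPM with a median of 11.3, so the control mice were uneven among themselves. At FT10ppm it was uniformly low, from 3.21 to 7.19 CPM with a median of 4.38. The groups overlapped in the 2 lowest control mice, at 4.18 and 5.33 CPM, both with RNA isolated at EPA. The log2 fold change was -2.12 ± 0.67 (SE, n = 7 per group) with an adjusted p of 0.0772 by edgeR and 0.0395 by DESeq2. Among mice isolated at EA alone it was -2.31 with an edgeR adjusted p of 0.0883. Within blocks 1, 3 and 4 the difference was -2.05, -1.84 and 0.17 on the log2(CPM + 1) scale. These differences have no isolator term, and the control mice isolated at EPA were in blocks 3 and 4.

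The groups FT2.5ppm, MT10ppm and PT40ppm, in which Myc had an unadjusted p under 0.05, had medians of 4.72, 5.98 and 6.45 CPM, with log2 fold changes of -1.55, -1.63 and -1.48 and edgeR adjusted p-values of 0.353, 0.378 and 0.507. In MT25ppm, MT50ppm and MT100ppm, which did not reach that p, the medians were 5.90, 6.16 and 5.42 CPM. All these comparisons share the control mice. FT20ppm was not low, at 4.67 to 78.5 CPM with a median of 12.4. Against the lower FT doses, which leaves the control mice out, FT20ppm Myc was higher by 2.15 ± 0.51 on the log2 scale. By p-value that difference had rank 4 among all genes, and yet its edgeR adjusted p was 0.181, where 0% of all genes were called and DESeq2 and limma called 0 members. Without the mice of block 4 edgeR did call Myc, at 2.97 with an adjusted p of 0.00555, where 47 of 10415 genes were called. Within blocks 1, 3 and 4 the difference was 1.43, 2.50 and -0.99, again with no isolator term. The FT20ppm mice isolated at EPA were in blocks 3 and 4.

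Genes that Myc works with or acts on were followed for comparison. Among 11 tested Myc target genes, mostly of ribosome production and growth, and 6 tested partners, 0 were called at FT10ppm. Their median log2 fold changes were 0.01 and 0.11, and 1.57% of all genes were called. At PT80ppm, where 18.6% of all genes were called, 2 targets rose, the nucleolar genes Nop56 and Ncl by 1.01 and 0.34. Another 2 targets fell, Ccnd2 by 0.51 and Ldha by 0.57, and 1 partner, Mxi1, rose by 0.30. In the fit without PT80ppm replicate 1, which called 1276 of 10415 genes, Nop56 was the one target called, at 0.91. Myc itself was at -0.22 at PT80ppm with all mice.

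**Figure D3:**
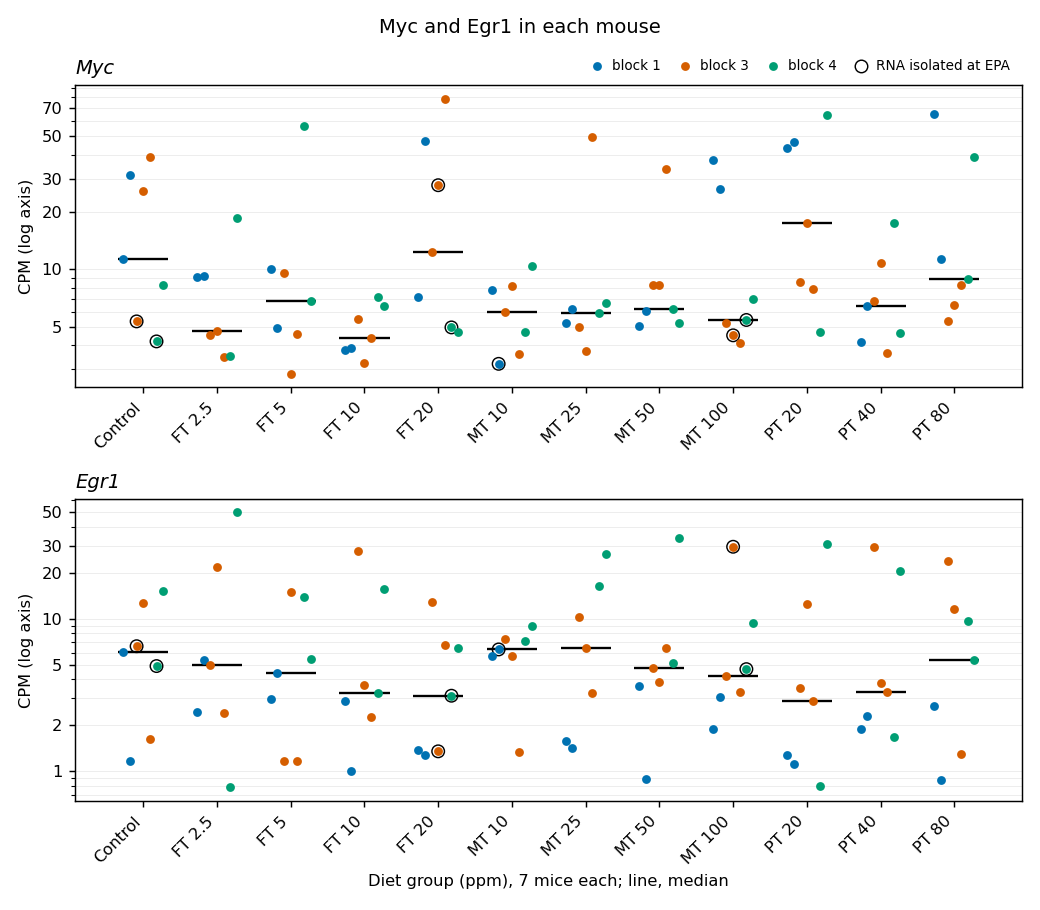
Level of Myc and Egr1 in each mouse, in CPM on a log axis, by diet group. Points are mice coloured by block, ringed where RNA was isolated at EPA, and lines are group medians. Myc sits between 3.21 and 7.19 CPM in all FT10ppm mice and between 4.18 and 39.02 CPM in the control mice, and Egr1 is at or below 6.29 CPM in the block 1 mice of every diet.

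For MT the highest dose was compared with the lower ones. All 8 members had log2 fold changes above 0, against 48.4% of all genes, with a median of 0.29. EdgeR called 0 of them and 0.0288% of all genes, 1 member (Ier2, 0.30) had an unadjusted p under 0.05, and DESeq2 and limma called 0. Some of the members rise and fall in the same mice, as shown further on (18 of 45 pairs by Pearson's r). Their 8 signs are therefore not all independent of each other.

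Every group held mice of the 3 experimental blocks, so block and diet can be told apart. Between blocks 3 of the 8 members differed, Egr1, Klf6 and Jun, as did 39.9% of all genes. The counts of members called were 2 of 8 for block 3 against block 1 (40% of all genes), 2 of 8 for block 4 against block 1 (38.1%) and 0 of 8 for block 4 against block 3 (0.0384%), where 0 members had an unadjusted p under 0.05 and DESeq2 and limma also called 0. Without PT80ppm replicate 1, a block 1 mouse, 4 of 8 differed between blocks, Dusp1 being the one added, as did 40.5% of all genes.

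Egr1, a zinc finger factor that answers to growth factors and feeding, had the largest difference of the members. Its levels ran from 0.882 to 6.29 CPM in block 1 (median 2.10), from 1.16 to 29.6 in block 3 (4.85) and from 0.786 to 49.6 in block 4 (8.08). No block 1 mouse exceeded 6.29 CPM, and the lowest mice of all blocks overlapped. Block 4 was above block 1 by 2.26 ± 0.40 (edgeR adjusted p = 4.09e-06) and block 3 by 1.73 ± 0.38 on the log2 scale. The mean of block 4 exceeded that of block 1 in 12 of 12 groups, and that of block 3 did so in 10 of 12. In these directions 18.2% and 18.8% of all genes were called. With PT80ppm replicate 1 left out the differences of Egr1 were 2.27 and 1.74, that of Jun between blocks 3 and 1 was 0.54 and that of Klf6 between blocks 4 and 1 was -0.50, all still called.

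Jun was higher in block 3 than in block 1 by 0.45 ± 0.15 (edgeR adjusted p = 0.0111), with medians of 9.91 and 7.03 CPM, and in 10 of 12 groups. Klf6 went the other way, with medians of 1.61, 1.26 and 1.01 CPM in blocks 1, 3 and 4, a log2 fold change of -0.54 ± 0.15 for block 4 against block 1 (edgeR adjusted p = 0.00293), a lower mean in 11 of 12 groups, and 19.9% of all genes called lower. Fos was below the filter, and its median was 0.0795 CPM in block 1, 0.232 in block 3 and 0.396 in block 4. These medians lie below or within the floor of 0.196 to 0.432 CPM. With no filter on low counts edgeR called Fos in block 3 and block 4 against block 1, at 1.21 (adjusted p = 0.0144) and 1.56 (adjusted p = 0.00234). In that setting 4177 and 3934 of 17683 genes were called.

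Beside these differences all 10 tested circadian clock genes differed between blocks. In block 4 against block 1 the log2 fold change was -2.85 for Per3, -3.52 for Dbp, 2.49 for Npas2 and 1.90 for Bmal1. Other early response genes had 10 of 26 called between blocks, a share near the 39.9% of all genes, with Nfil3, a repressor of the clock output, higher by 1.55, Ier5 by 0.48 and Jund, the remaining Jun family gene, by 0.32 in block 4, and Bhlhe40 lower (-0.66). Of 10 inflammatory and acute phase genes 6 were higher in block 4 than in block 1, and of 5 Kupffer cell markers 4 were higher. In that comparison 18.2% of all genes were called higher. Of 27 MAP kinase and serum response factor pathway genes 11 were called, 6 higher and 5 lower, a share near the 38.1% of all genes called there. The part of these genes in the block difference of Egr1, Jun and Klf6 was not tested.

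RNA isolated at EPA came from 2 mice each of the control, FT20ppm and MT100ppm groups and 1 of MT10ppm, each of which also held EA mice. Myc was the 1 member of 8 called, against 38.7% of all genes called and 19% called lower. EPA mice were at 27.7, 5.42, 5.33, 4.95, 4.50, 4.18 and 3.19 CPM, and EA mice ran from 2.83 to 78.5 CPM with a median of 6.94. Thus 6 of the 7 EPA mice were below the EA median, and all 7 lay within the EA range. The log2 fold change was -1.59 ± 0.57 (edgeR adjusted p = 0.0214), and the call was lost without Con0ppm replicate 6 (-1.46, adjusted p = 0.0529) and without FT20ppm replicate 6 (-1.42, adjusted p = 0.0542). It was kept without PT80ppm replicate 1 (-1.64, adjusted p = 0.0147). Of the 11 Myc targets tested 1 was higher, Odc1 by 0.51, and 3 were lower, Ncl (-0.41), Cdk4 (-0.39) and Fbl (-0.31). Of the 27 pathway genes 8 were higher and 7 lower, and of 26 other early response genes 3 were higher and 2 lower, Tnfaip3, an inhibitor of NF-kB signalling, being the one with the smallest adjusted p (1.61).

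The last question was whether members were high in the same mice. Residual log2(CPM + 1), with group, block and isolator means removed, was correlated over 84 mice for all 45 pairs of the 10 genes. At a Benjamini-Hochberg adjusted permutation p under 0.05 over the 45 pairs, 18 pairs were correlated by Pearson's r, all positively, and 16 of them also by Spearman's rho. Of these 18 pairs 17 had a positive r within every block, the exception being Fos with Junb (-0.05 in block 1). The 2 pairs called by Pearson's r alone, Jun with Ier3 and Dusp1 with Myc, were lost without PT80ppm replicate 1, which left 16 pairs.

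**Figure D4:**
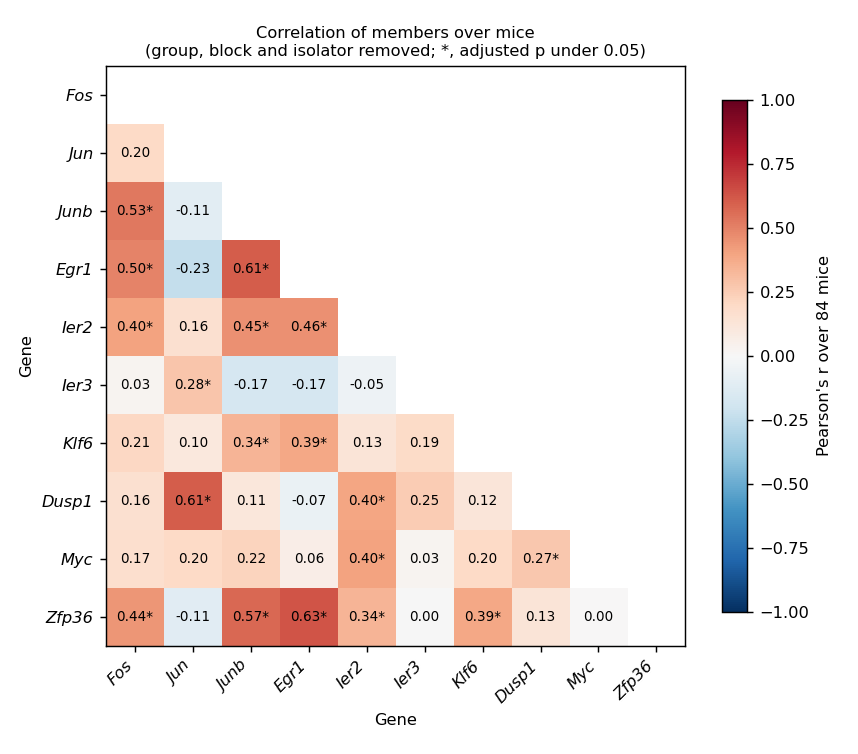
Pearson's r of residual log2(CPM + 1) over 84 mice for the 45 pairs of the 10 immediate early genes, as a colour scale. The highest values are those of Egr1 with Zfp36 (0.63), Jun with Dusp1 (0.61) and Junb with Egr1 (0.61), and the lowest is that of Jun with Egr1 (-0.23).

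The strongest of the 18 pairs are described here, and they fell into sets that shared no gene. Egr1, Junb and Zfp36 were correlated with each other. Egr1 and Zfp36 had r = 0.630 and rho = 0.600, r = 0.620 without the 2 mice farthest from the median of Egr1, and r = 0.156, 0.697 and 0.676 within blocks 1, 3 and 4. Junb and Egr1 had r = 0.606 and rho = 0.592, 0.570 without the 2 farthest mice, and 0.401, 0.624 and 0.671 within the blocks. Junb and Zfp36 had r = 0.575 and rho = 0.608, 0.545 without the 2 farthest mice, and 0.272, 0.625 and 0.647 within the blocks. With PT80ppm replicate 1 left out, r of these 3 pairs was 0.641, 0.607 and 0.571. In each of them r was lowest in block 1, where Egr1 was low, and whether r differs between blocks was not tested. The permutation p of r in these 3 pairs was 1e-05, the smallest that 100000 permutations can give, and 5.62e-05 after adjustment over the 45 pairs.

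Jun, although an AP-1 subunit like Junb, did not join this set. Its r was -0.11 with Junb, -0.11 with Zfp36 and -0.23 with Egr1 (rho = -0.28, permutation p = 0.0325 for r and 0.0100 for rho, adjusted 0.0731 and 0.0265). Jun was high instead in the mice in which the phosphatase gene Dusp1 was high, with r = 0.608 and rho = 0.449 (permutation p = 1e-05 for r, adjusted 5.62e-05), 0.528 without the 2 farthest mice and 0.738, 0.620 and 0.413 within blocks 1, 3 and 4. Without PT80ppm replicate 1 that r was 0.540. The scatter of these pairs shows both sets mouse by mouse.

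**Figure D5:**
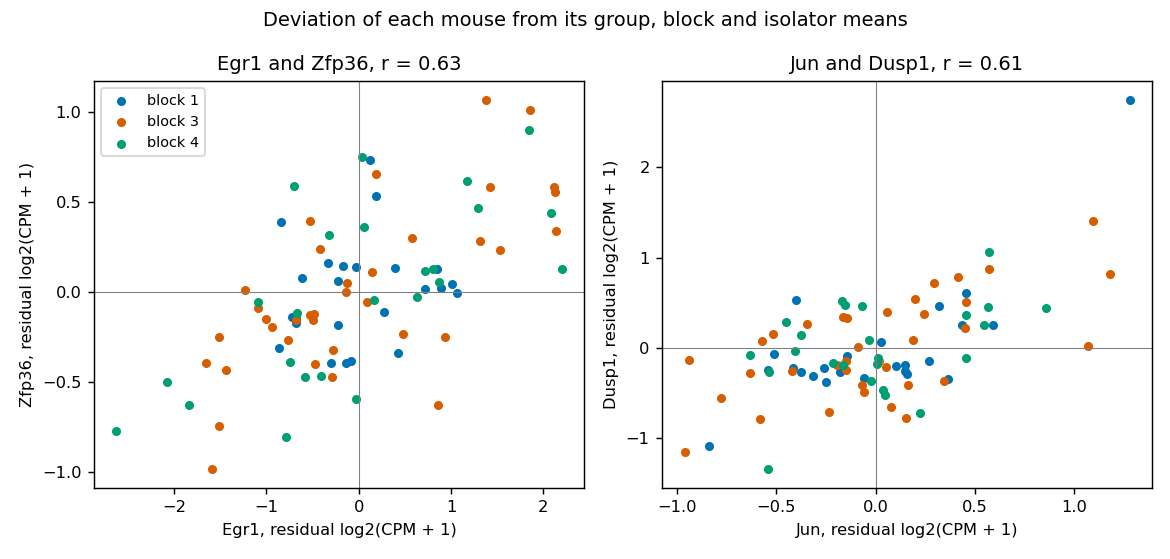
Residual log2(CPM + 1) of Egr1 against Zfp36 and of Jun against Dusp1, 1 point per mouse, coloured by block. Pearson's r over 84 mice is 0.630 for the first pair and 0.608 for the second, and PT80ppm replicate 1 is among the highest Dusp1 points.

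A mean profile of the 8 tested members was formed from their standardised residuals. It correlated with its own members at 0.348 (Jun) to 0.718 (Ier2), which its construction raises. The profile ran from -1.57 in FT2.5ppm replicate 6 to 1.93 in PT80ppm replicate 1. It did not follow depth, with r = -0.0717 (permutation p = 0.516) and rho = -0.0918 (permutation p = 0.406) against log2 total count over 84 mice, -0.114 without the 2 farthest mice and -0.279, -0.0217 and 0.133 within blocks 1, 3 and 4. Without PT80ppm replicate 1 that r was -0.0491.

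The 10 other genes whose residuals were most like this profile over the 84 mice were led by Btg2, an antiproliferative gene of the early response, at r = 0.743, and Zfp36l1, a relative of Zfp36 that also binds AU-rich mRNAs, at 0.629. They were followed by the kinase genes Pim3 (0.624) and Plk3 (0.562), Psmd9 (0.57), Slc45a3 (0.561), the cyclin gene Ccng2 (0.559), Retreg1 (0.545), Upf3a (0.542) and Mafg, a small Maf factor (0.542). The median r over all other tested genes was 0.0485. Without PT80ppm replicate 1, r was 0.680 for Btg2, 0.597 for Zfp36l1 and 0.582 for Mafg, and lowest of the 10 for Retreg1 at 0.411.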

How the data were processed

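Liver RNA of 84 mice in 12 groups of 7 was analysed. The authors aligned TempO-Seq reads with STAR to mm39 and quantified Ensembl transcripts with the Partek E/M method. The deposited estimated counts were not normalized, and 18.7% of them were not whole numbers. The authors also deposited log2 CPM values adjusted for block and isolator, treated here as a score without a fixed range and used as an alternative only. Gene names came from an annotation of GRCm39, which named 17660 of 17695 genes, and promoters from RefSeq for GRCm38.p6.

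Counts were rounded, and genes with a median count above 8 were tested with edgeR 4.0.16 (quasi-likelihood test, TMM) in 1 model of group, block and isolator over all mice. P-values were Benjamini-Hochberg adjusted over 10415 genes and called under 0.05. Fold changes are log2 values with their SE. DESeq2 1.42.0 and limma 3.58.1 on log2(CPM + 1) were the alternatives, run in R 4.3.3. Correlations, tables and plots were made with scipy 1.17.1, pandas 2.3.3, numpy 2.4.6 and matplotlib 3.10.9 under Python 3.11.15. The fits were tested on simulated data. No 2 libraries were alike enough to be duplicates (highest r of log2 counts 0.987).

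All 10 members were named, with up to 6 called genes of each other list by smallest adjusted p and the 10 genes most like the members' mean profile. Members and lists were chosen with earlier results of these data known. Alternatives covered the test, scaling, filter, covariates, isolator, blocks and single mice.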

Additional observations from a re-analysis of the deposited data

Results flagged for a closer look

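Of 120 sets of 7 values, 1 for each of the 10 members in each of the 12 groups, 19 had a mouse far from the other 6 of its group by Dixon's criterion, 16 at the high end and 3 at the low end. The criterion was applied to log2(CPM + 1) within groups, with blocks not removed. For normal values chance marks about 1 in 20 groups, or 6 of 120, and Fos and Ier3, with many mice at 0, are not of that kind. Fos stood out at 0.979 CPM in Con0ppm replicate 6 and 1.18 in MT25ppm replicate 7. Ier3 did so at 0.391 in Con0ppm replicate 1, 0.210 in FT5ppm replicate 2, 0.561 in MT100ppm replicate 6, 0.0833 in PT40ppm replicate 3 and 0.735 in PT80ppm replicate 1. Both genes were at or near the floor of 3 counts, so these 7 values rest on few counts.

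Jun was far above its group in Con0ppm replicate 4 (24.4 CPM), FT5ppm replicate 7 (13.2) and PT20ppm replicate 3 (28.6). Myc was far above its group in FT5ppm replicate 6 (56.4 CPM), MT25ppm replicate 5 (49.5) and MT50ppm replicate 5 (33.6), where the next mice were at 10.1, 6.65 and 8.28 CPM. Dusp1 was at 57.4 CPM in FT20ppm replicate 4, whose RNA was isolated at EPA. Ier2 was high at 62.7 CPM in MT50ppm replicate 7 and low at 28.9 in MT10ppm replicate 2. Egr1 was low at 1.34 CPM in MT10ppm replicate 4, with the next mouse at 5.68. Zfp36 was high at 18.6 CPM in FT10ppm replicate 3 and low at 6.64 in FT2.5ppm replicate 6, the mouse with the lowest member profile. The causes were not tested.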

How the results depend on the processing

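Calls of members were summed over the comparisons of a kind, so a member counts once in each comparison that called it. The number of calls against the control over the 11 dosed groups was 2. It was 1 with EA mice alone, with no filter on low counts, with limma and without block 3, 4 without block 4, and 0 without block 1 or with the mice of 1 OPP and the control alone. Over any dose of an OPP it was also 2, with 1 under limma and without block 3, 4 without block 4 and 0 without block 1. The F test on the deposited adjusted values gave 18 calls, summed over the FT, MT and PT tests of 8 members. That test called 68.9%, 79.4% and 64.6% of all genes for FT, MT and PT. For the highest against the lower doses the number of calls was 3, with 1 without block 1 and 4 without block 4. For EPA against EA it was 1, and 0 without block 1, without block 4 and with limma, whose log2(CPM + 1) values moved the median of all genes there by 0.13. The 1 reversed value was Dusp1 at PT80ppm, -0.13 without block 1.

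Leaving out 1 mouse at a time gave 0 to 2 members at PT80ppm (0 without PT80ppm replicate 1), 0 to 3 for any dose of PT, 1 to 3 for the highest against the lower PT doses and 0 to 1 for EPA against EA. These fits for the last 3 comparisons, and all values without PT80ppm replicate 1 outside the comparison of PT80ppm with the control, among them the correlations (16 pairs against 18) and the blocks (4 members against 3), were chosen after seeing the data, as were the lists' counts without that mouse. Between blocks the count stayed at 2 to 4. The other settings for correlations each gave 18 pairs. For single members 213 of 257 settings kept direction and side of the threshold, 36 lost the call and 7 gained one. The cause of these changes was not tested. No paired analysis was possible because the labels carry no replicate numbers that tie mice of different groups. Block, which every group shares, was a term of the model throughout, and without block and isolator as terms the counts over dosed groups, any dose and highest against lower doses were 2, 2 and 3. Fos was at 3 counts or fewer in 50 of 84 mice and Ier3 in 78.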
